A study of Mus musculus with 16 samples.

Results

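The genotype by treatment interaction of these cells is the difference between 2 responses to TGF-β1: that of lung fibroblasts lacking meflin and that of wild type lung fibroblasts. It was computed for every gene from all 16 arrays of the series as the knockout response minus the wild type response, each response being TGF-β1 minus vehicle on the log2 scale. The genes described here responded in opposite directions, in only 1 genotype, or more in wild type. All 16 of 16 samples and 15394 tested genes entered.

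RNA was measured on 1-colour Agilent mouse arrays in primary lung fibroblasts of female mice aged 8 weeks. The 4 groups held 4 arrays each: wild type C57BL/6J cells with vehicle, wild type cells with recombinant TGF-β1, Meflin knockout cells with vehicle, and Meflin knockout cells with recombinant TGF-β1. The cytokine was given at 5 ng/ml for 48 h. The submitters describe 4 independent experiments per group. No label ties an array to an animal, so the p-values measure the spread between these arrays. How the knockout allele was made, and whether the mice were littermates, are not given in the sources used here.

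TGF-β1 binds a pair of receptor kinases that phosphorylate SMAD2 and SMAD3, and it turns fibroblasts into contractile, matrix-secreting myofibroblasts. Meflin, encoded by Islr, is a membrane-anchored protein of fibroblasts and mesenchymal stromal cells. Lung fibroblasts also secrete growth factors, Wnt proteins and cytokines that act on the neighbouring epithelium, and several of the genes below belong to those families.

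The level of Islr was read first, as a check of the labels. Its log2 signal was 10.88, 10.78, 10.87 and 10.75 on the wild type vehicle arrays and 8.23, 8.35, 8.42 and 8.36 on the wild type TGF-β1 arrays. None of the 8 knockout arrays was well above background, with values of 1.34 to 1.82. The knockout level was therefore at least 138-fold lower with vehicle and with TGF-β1 at least 19.7-fold lower. These bounds set the wild type mean against the lowest signal well above background on each array. Islr had 1 probe, which could lie outside the deleted part. Its interaction of 2.79 is no response of the knockout cells, although the calling rules count Islr among the opposite genes and among the wild type responses.

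The 75th percentile of an array's intensities ranged from 382 to 526, and in both genotypes the TGF-β1 arrays were below the vehicle arrays. On each array 31308 to 35457 probes passed the scanner software's test for being well above background. Arrays of a group correlated at r of 0.99587 or more. The fibroblast genes Col1a1, Col1a2, Pdgfra, Thy1, Vim and Dcn were well above background on all 16 arrays. Ptprc and Cd68 of leukocytes, Pecam1 of endothelium, and Msln and Wt1 of mesothelium were also above it on all 16. Of epithelial genes, Cdh1 was above it on all 16, Sftpc on 9, Epcam on 5 and Nkx2-1 on 0. In such bulk samples fewer cells of a type and less RNA per cell cannot be told apart.

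Both genotypes responded broadly, and the knockout response was the wider one. Limma's moderated test called 68.6% of genes for TGF-β1 in wild type and 82.5% in knockout, at a Benjamini-Hochberg adjusted p under 0.05. The median response was 0.08 in wild type and 0.10 in knockout, and the SD over genes was 0.68 and 1.12. Across genes the responses correlated with r = 0.813 (Spearman's rho 0.809), as a description, since genes are not independent replicates. The slope of the knockout response on that of wild type was 1.35.

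The interaction passed the test for 8967 genes, 58.2% of those tested. It was positive for 4887 (31.7%) and negative for 4080 (26.5%). The positive share of the calls, 54.5%, depended on the scaling: quantile normalization gave 43.6%, and the table of values deposited by the authors gave 48.1%. A called interaction of at least 1 log2 unit was found for 1533 genes, 498 positive and 1035 negative. Of 5735 genes that passed in both genotypes in the same direction with a called interaction, 93.4% moved more in knockout. Because the interaction is so widespread, a called interaction alone sets no gene apart, and the classes below ask for more.

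Opposite responses, with both responses and the interaction called, were found for 608 genes, 3.95% of those tested. Wild type rose and knockout fell for 383 of them (2.49%), and the reverse held for 225 (1.46%). Most were small: the median of the smaller response was 0.23. Both responses reached 0.5 log2 units for 61 genes (0.396%), 32 up in wild type (0.208%) and 29 down (0.188%). On slide 1 alone 607 of the 608 kept their pair of signs, and on slide 2 alone all 608 did. The genes were chosen from these same arrays, so this agreement is largely built in and is no independent check. Membership depended on the scaling, and 377 of the 608 genes were called opposite after quantile normalization, among 634 in all. Of the 61, quantile normalization kept 40 and normexp background correction kept 20.

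**Figure D1:**
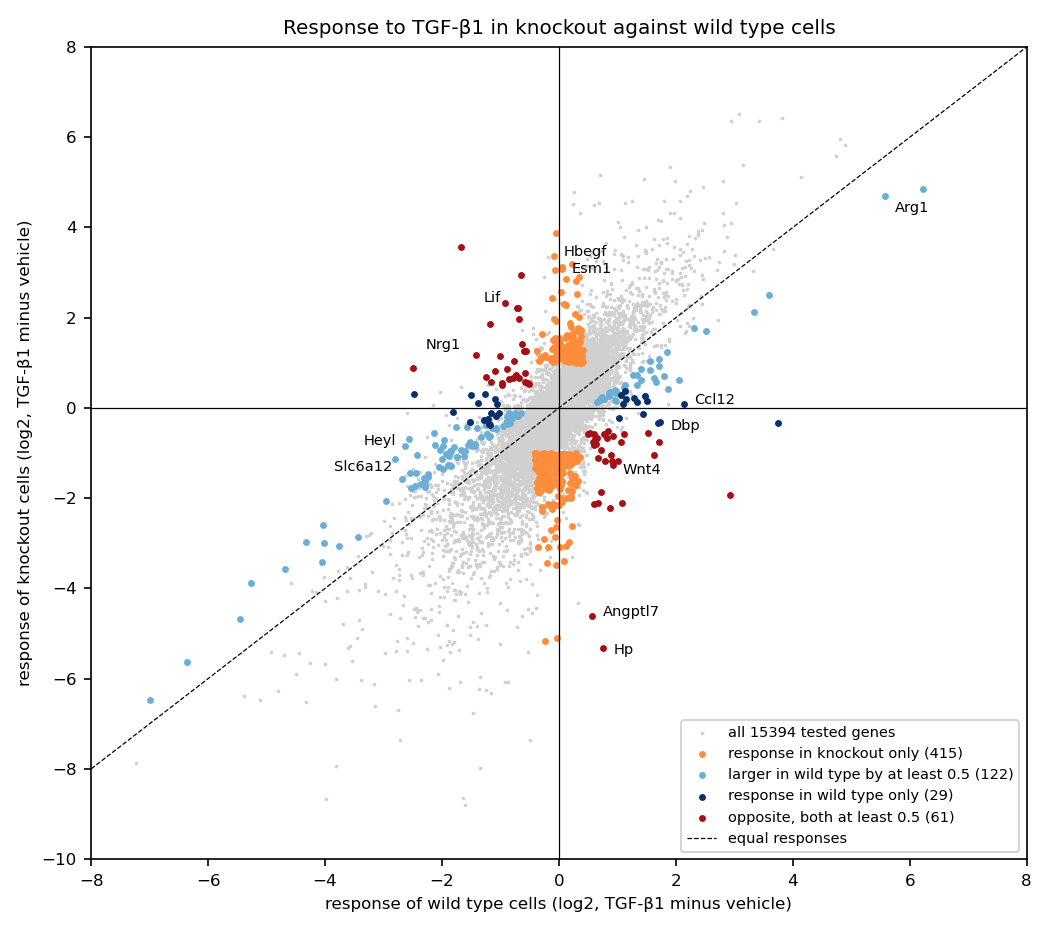
Response to TGF-β1 of knockout cells (y axis, log2) against that of wild type cells (x axis, log2), 1 point per tested gene; colours mark the classes and the dashed line marks equal responses. The 61 genes with opposite responses of at least 0.5 log2 units lie in the upper left and lower right, with Hp and Angptl7 lowest among them.

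Of the 61, 40 were well above background on all 16 arrays, a smaller share than the 13954 of all 15394 tested genes. Genes near background are thus more frequent in this class. In 54 of the 61 the TGF-β1 and vehicle arrays did not overlap in either genotype. The threshold of 0.5 was not a gap in the data. Just inside it the smaller response was 0.504 for C1qtnf1 and Pgf and 0.509 for Otud1, and just outside 0.498 for Mro, 0.493 for Mmp11 and 0.486 for Pcdh18. Other probes of these genes gave the same pair of signs in 11 of 12 cases. The exception was C1qtnf1, whose other probe rose in both genotypes, by 1.18 in wild type and 0.30 in knockout.

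The genes that rose in wild type and fell in knockout include secreted proteins. Hp, haptoglobin, binds free haemoglobin and is an acute phase protein. Its log2 signal was 13.49, 13.48, 13.57 and 13.52 on the wild type vehicle arrays and 14.22, 14.28, 14.32 and 14.28 with TGF-β1. In knockout it was 13.78, 13.91, 13.99 and 13.96 with vehicle and 8.45, 8.86, 8.41 and 8.62 with TGF-β1. The 4 groups did not overlap, and the knockout TGF-β1 arrays stood far below the other 12. Hp thus rose 1.69-fold in wild type (log2 0.76 ± 0.08, SE) and fell 40.1-fold in knockout, with an interaction of -6.08 ± 0.11 (SE, adjusted p = 1.11e-14, limma's moderated test). Within slide 1 the interaction was -5.95 and within slide 2 it was -6.22.

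Angptl7, an angiopoietin-like protein, gave the same pattern from a lower level. Its values were 9.77, 9.76, 9.80 and 9.79 on the wild type vehicle arrays and 10.35, 10.40, 10.30 and 10.35 with TGF-β1. Knockout cells gave 9.46, 9.39, 9.32 and 9.27 with vehicle and 4.89, 4.95, 4.63 and 4.505 with TGF-β1. The last group again lay below the other 12 arrays. The rise in wild type was 1.49-fold, the fall in knockout 24.6-fold, and the interaction -5.19 ± 0.11 (SE, adjusted p = 5.68e-14). It was -5.12 within slide 1 and -5.26 within slide 2. After normexp background correction it was -3.46.

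Wnt4, a secreted Wnt ligand, changed by 0.90 ± 0.05 (SE) in wild type and by -1.18 ± 0.05 in knockout. Its wild type arrays gave 8.42, 8.40, 8.30 and 8.26 with vehicle and 9.18, 9.31, 9.25 and 9.25 with TGF-β1, and its knockout arrays 8.83, 8.73, 8.65 and 8.63 with vehicle and 7.51, 7.53, 7.54 and 7.53 with TGF-β1. No groups overlapped. Ccn3, a matricellular protein of the CCN family, rose by 0.89 ± 0.09 in wild type and changed by -1.04 ± 0.09 in knockout. Its vehicle arrays overlapped between genotypes, at 10.54 to 10.73 in wild type and 10.44 to 10.76 in knockout, while with TGF-β1 they stood at 11.50 to 11.58 and 9.24 to 9.80.

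Adora2a, an adenosine receptor, changed by 0.79 ± 0.18 and -1.18 ± 0.18 (SE) in wild type and knockout, and Adgrg2, an adhesion G protein-coupled receptor, by 1.06 ± 0.07 and -0.75 ± 0.07. Arsi, a sulfatase, changed by 1.70 and -0.76, Npl, which cleaves sialic acid, by 0.71 and -0.93, and Rasl11a, a small GTPase, by 0.67 and -1.11. Cstad (0.83 and -0.68) and Proca1 (0.66 and -0.66) completed, with Hp, the 10 genes of this pattern with the largest smaller response among those measured on every array. Apart from Hp at -6.08, the interactions of these 10 ran from -2.46 for Arsi to -1.32 for Proca1. The call of opposite responses for Arsi was lost after normexp correction, and the other 9 were called opposite under every alternative that tested them.

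**Figure D2:**
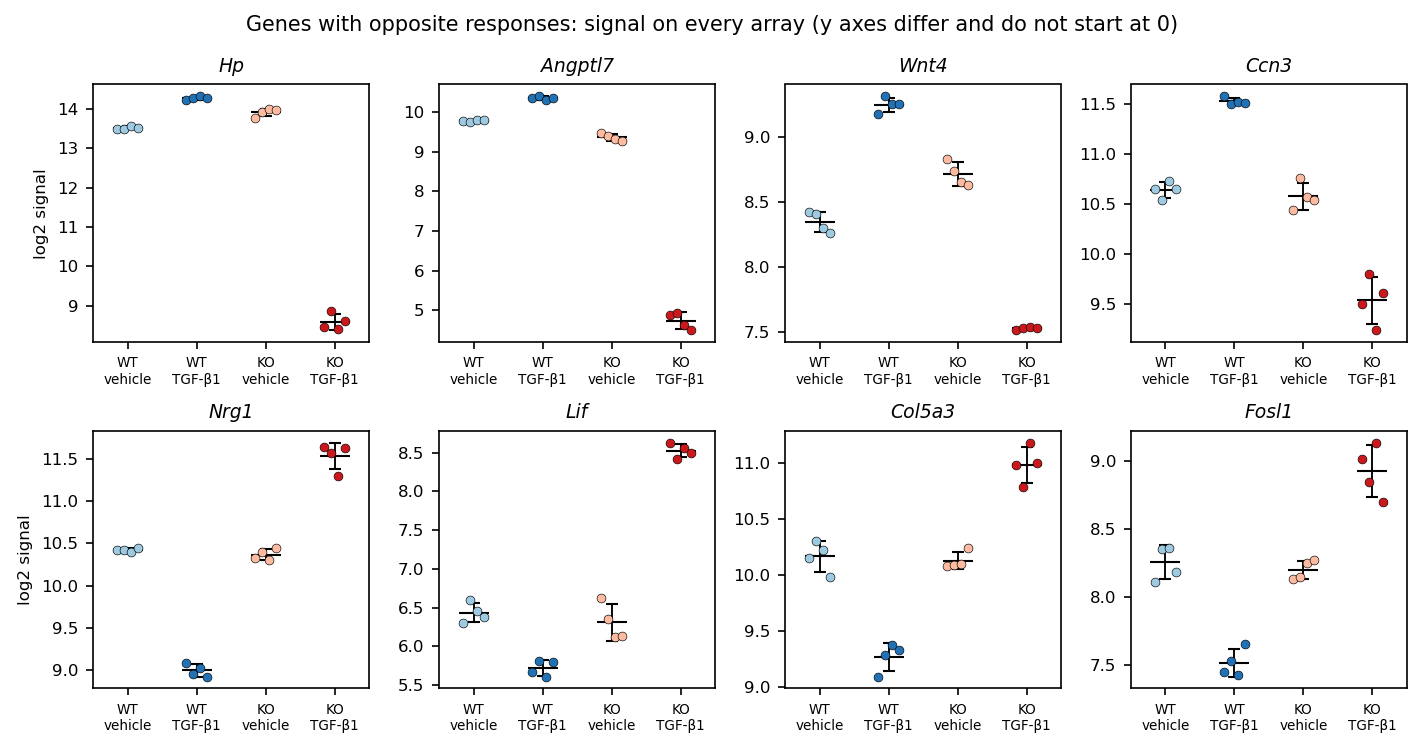
Log2 signal on every array (y axis) for 8 genes with opposite responses, by genotype and treatment; points are arrays, horizontal lines group means and bars 1 SD (n = 4). In the top row wild type rises and knockout falls, and in the bottom row wild type falls and knockout rises; the vehicle groups of the genotypes lie within 0.42 log2 units of each other in mean.

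Among the genes that fell in wild type and rose in knockout were growth factors and cytokines. Nrg1, neuregulin 1, is a ligand of the ErbB receptors. It stood at 10.42, 10.43, 10.40 and 10.45 on the wild type vehicle arrays and at 9.09, 8.95, 9.03 and 8.93 with TGF-β1. The knockout arrays gave 10.32, 10.40, 10.30 and 10.44 with vehicle and 11.63, 11.57, 11.30 and 11.62 with TGF-β1. The vehicle arrays of the genotypes overlapped, and their TGF-β1 arrays lay on opposite sides of them. Nrg1 fell 2.68-fold in wild type and rose 2.24-fold in knockout, with an interaction of 2.59 ± 0.09 (SE, adjusted p = 9.67e-12), 2.64 within slide 1 and 2.53 within slide 2. Both of its other probes had the same signs, -0.79 and 2.57 for one and -1.87 and 0.95 for the other, in wild type and knockout.

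Lif, leukemia inhibitory factor, is a cytokine of the interleukin 6 family. Its wild type arrays gave 6.31, 6.59, 6.45 and 6.37 with vehicle and 5.67, 5.82, 5.61 and 5.80 with TGF-β1, and its knockout arrays 6.62, 6.36, 6.12 and 6.14 with vehicle and 8.63, 8.42, 8.56 and 8.499 with TGF-β1. The vehicle arrays again overlapped, and the knockout TGF-β1 arrays were the highest. Lif fell 1.64-fold in wild type and rose 4.65-fold in knockout (interaction 2.93 ± 0.14, SE, adjusted p = 2.36e-10). Tnfsf18, a TNF family ligand, changed by -0.71 ± 0.11 and 2.22 ± 0.11, and Btc, betacellulin, an EGF receptor ligand, by -0.77 ± 0.16 and 1.04 ± 0.16.

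Col5a3, the α3 chain of type V collagen, changed by -0.90 ± 0.09 (SE) in wild type and 0.86 ± 0.09 in knockout. Its vehicle arrays were at 10.15, 10.31, 10.23 and 9.99 in wild type and 10.08, 10.09, 10.10 and 10.25 in knockout, and its TGF-β1 arrays at 9.09, 9.29, 9.38 and 9.33 and at 10.98, 10.79, 11.19 and 11.001. The genotypes overlapped with vehicle and were apart with TGF-β1. Fosl1, an AP-1 transcription factor subunit, changed by -0.74 ± 0.09 and 0.72 ± 0.09, and its TGF-β1 arrays were at 7.43 to 7.65 in wild type and 8.70 to 9.13 in knockout. Olr1, a receptor for oxidized LDL, changed by -1.25 and 0.68, Sgk1, a serum-induced kinase, by -0.69 and 0.66, Insc, an adaptor of asymmetric cell division, by -1.01 and 1.15, and Nat8l, which makes N-acetylaspartate, by -1.16 and 0.58. These 10 genes, Nrg1 included, were called opposite under every alternative that tested them.

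Promoters of the 61 genes were read as a description. That the genes of each pattern move together follows from how they were chosen. The windows are RefSeq's on GRCm38.p6, from 250 bases before to 50 after a gene's start, and 25 of the 32 genes up in wild type and 23 of the 29 down in wild type had one. Hp, Nrg1 and Fosl1 had no entry. Capitals mark matches to the 7 motifs named below, searched on both strands and counted each on its own where they overlap. The sequences of Angptl7, the most negative interaction of the 61 with an entry, and of Lif and Olr1, each with an AP-1 match, are printed 5′ to 3′ on the gene's strand.
Angptl7 (chr4:148500413-148500712, minus strand): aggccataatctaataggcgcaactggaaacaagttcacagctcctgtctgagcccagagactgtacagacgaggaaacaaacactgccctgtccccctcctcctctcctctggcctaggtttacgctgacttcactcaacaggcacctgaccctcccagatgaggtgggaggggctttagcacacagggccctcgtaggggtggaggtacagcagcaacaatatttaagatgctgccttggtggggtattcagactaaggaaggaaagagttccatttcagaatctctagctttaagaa
Lif (chr11:4257318-4257617, plus strand): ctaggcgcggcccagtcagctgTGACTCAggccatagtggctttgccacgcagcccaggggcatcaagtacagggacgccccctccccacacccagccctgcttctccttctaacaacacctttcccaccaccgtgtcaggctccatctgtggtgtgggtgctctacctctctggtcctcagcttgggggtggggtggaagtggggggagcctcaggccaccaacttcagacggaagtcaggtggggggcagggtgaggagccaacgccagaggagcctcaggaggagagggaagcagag
Olr1 (chr6:129507116-129507415, minus strand): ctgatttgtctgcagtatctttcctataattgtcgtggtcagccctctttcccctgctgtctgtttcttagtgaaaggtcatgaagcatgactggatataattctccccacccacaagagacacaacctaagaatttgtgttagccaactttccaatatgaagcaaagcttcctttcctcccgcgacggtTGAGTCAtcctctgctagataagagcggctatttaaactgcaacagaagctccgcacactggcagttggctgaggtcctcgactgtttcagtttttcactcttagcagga

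The AP-1 motif TGANTCA was found in 3 of 29 promoters of the genes up in wild type (10.3%), in 3 of 34 of those down in wild type (8.82%) and in 5.76% of the 15426 promoters of tested genes. It reads the same on both strands. The TEAD motif GGAATG was found in 10.3%, 17.6% and 12.7%, the STAT motif TTCNNNGAA in 3.45%, 14.7% and 7.07%, and the C/EBP motif TTGCNNAA in 6.9%, 5.88% and 8.99%, in the same order. The SMAD palindrome GTCTAGAC was in 0% of both sets and 0.272% of all, the CArG box in 0%, 5.88% and 1.41%, and the NF-κB motif in 6.9%, 0% and 5.19%. These shares of the opposite genes rest on 0 to 6 promoters each, and a match is a string of letters, not a site. The AP-1 matches of the second set lie in Lif, Olr1 and Lor, and those of the first in Ccdc160, Fam110c and Plch2.

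In most of the genes with opposite responses of at least 0.5, the genotypes differed less with vehicle than with TGF-β1. Over the 61 genes the median size of the genotype difference was 0.18 with vehicle and 1.72 with TGF-β1. Vehicle cells differed by less than 0.5 in 55 of the 61, a smaller share than the 96.8% of all tested genes. A small difference with vehicle therefore does not set these genes apart. TGF-β1-treated cells differed by at least 1 in 56, a size for which no share over all genes is given here. Limma's moderated test called the difference with TGF-β1 alone in 43 genes, in both conditions with opposite signs in 12, in both with 1 sign in 5, and with vehicle alone in 1. Over all genes it called 13.2% with vehicle and 70.2% with TGF-β1. Opposite responses of at least 0.5 each make an interaction of at least 1. That interaction is also the genotype difference with TGF-β1 minus the difference with vehicle. A sizeable difference in at least 1 condition therefore follows from the choice of the 61 genes. The same arrays enter these differences and the responses, so the measures are not independent. Hp is among the 12 whose sign turned: knockout was 0.39 above wild type with vehicle and 5.69 below it with TGF-β1, on the log2 scale.

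**Figure D3:**
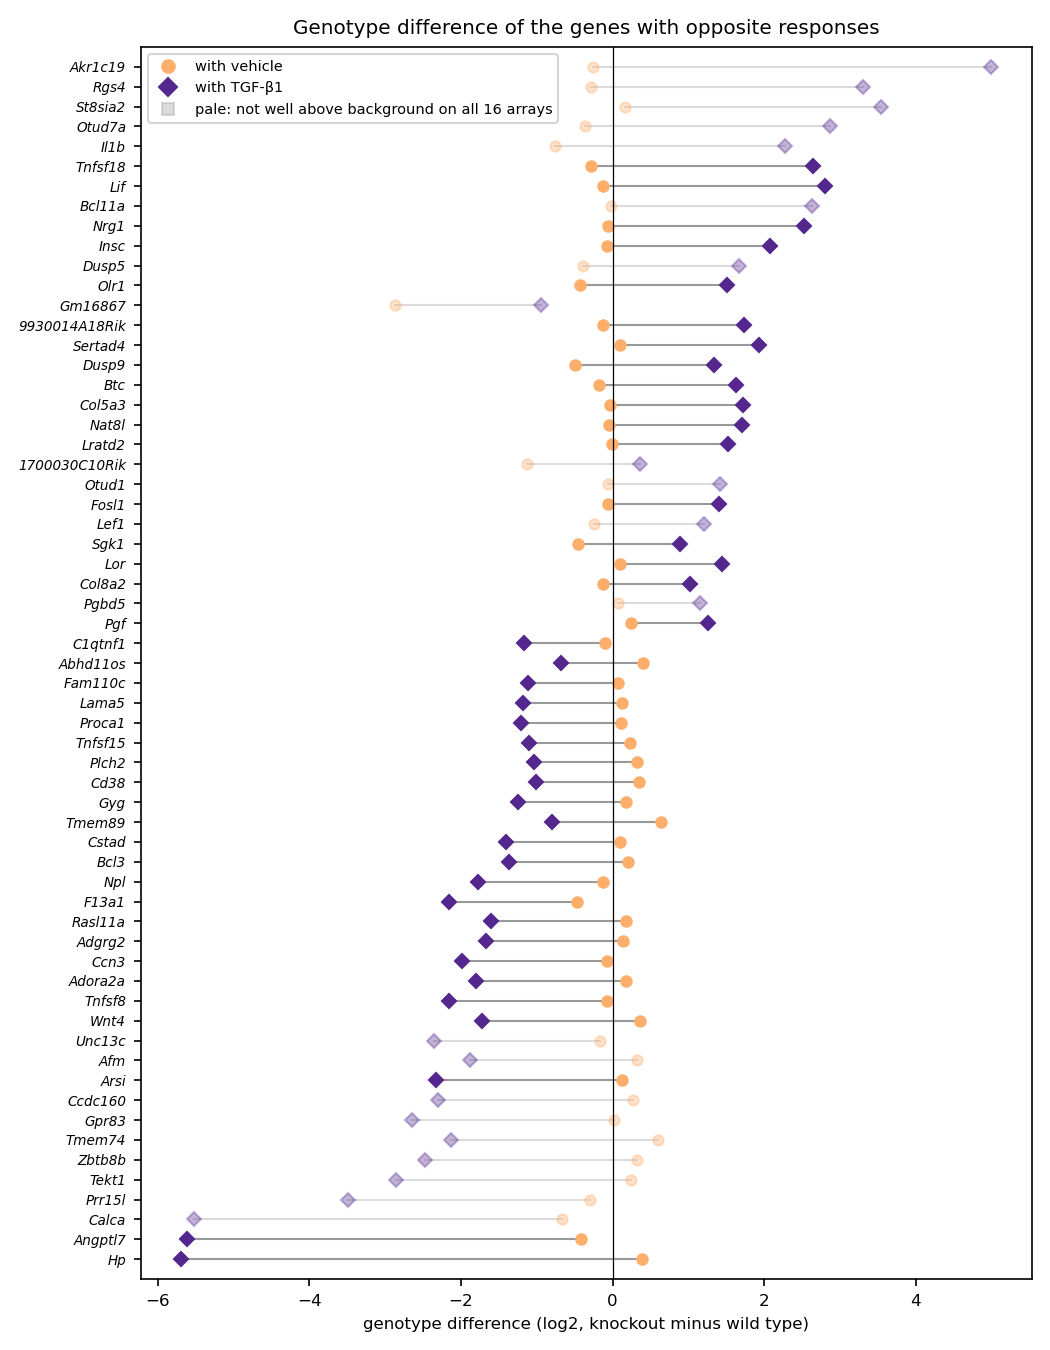
Genotype difference (x axis, log2, knockout minus wild type) with vehicle (circles) and with TGF-β1 (diamonds) for the 61 genes with opposite responses of at least 0.5, ordered by interaction; pale symbols mark genes not well above background on all 16 arrays. Vehicle differences lie near 0 in most rows, with a median size of 0.18, and TGF-β1 differences away from it, with a median size of 1.72.

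Of the 61 genes, 21 were not well above background on all 16 arrays, and their responses are partly unmeasured. Akr1c19, an aldo-keto reductase, had the largest positive interaction of these, but its fall in wild type ended below background. With TGF-β1 it was at least 8.97-fold higher in knockout than in wild type, with 4 knockout arrays well above background (6.74 to 7.39) and 0 of 4 wild type arrays. Calca, which encodes calcitonin and the peptide CGRP, was at least 10.4-fold lower in knockout with TGF-β1. It rose by 2.92 in wild type, and its knockout fall began at 3.14 to 4.19, with 3 of 4 arrays well above background. Rgs4, a regulator of G protein signalling, was at least 6.08-fold higher in knockout with TGF-β1, and its small fall in wild type kept the opposite call under only 8 of 26 alternatives.

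The lists below follow these genes into their pathways. A list is described by its counts beside the shares over all tested genes, 31.7% with a positive and 26.5% with a negative called interaction, and beside the median interaction of all genes, 0.05. Counts of opposite members are to be read beside 3.95% of all tested genes. For responses in knockout only, in wild type only or larger in knockout, the shares over all genes are 2.7%, 0.188% and 34.8%. The lists were drawn up with earlier results of these data known, so that the counts describe and do not test.

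Ligands of the EGF receptor family were the first list. Of 8 tested ligands 4 had a positive and 2 a negative called interaction (median 0.56), and the 6 calls are to be read against 58.2% of all genes. Hbegf, heparin-binding EGF-like growth factor, responded in knockout only. Its wild type arrays gave 9.14, 9.12, 9.27 and 9.20 with vehicle and 9.10, 9.01, 9.10 and 9.14 with TGF-β1, and its knockout arrays 9.10, 9.0, 9.03 and 9.10 with vehicle and 12.37, 12.31, 12.61 and 12.37 with TGF-β1. The knockout TGF-β1 arrays stood far above the other 12. Hbegf rose 10.2-fold in knockout, its wild type response was -0.09 ± 0.06 (SE), and the interaction was 3.45 ± 0.08 (adjusted p = 2.88e-13), 3.36 within slide 1 and 3.54 within slide 2.

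Ereg, epiregulin, fell in both genotypes and more in wild type, by 1.89 against 1.06 on the log2 scale. Nrg2 fell by 1.49 on the log2 scale in wild type and at least 5.82-fold in knockout, where it ended below background. Egf changed by -0.36 in wild type and -1.09 in knockout. Nrg4 had no called interaction (-0.04), and Areg was not well above background on any TGF-β1 array of either genotype, so that the difference between its falls was not measured. The receptors moved little: Egfr changed by 0.28 and 0.03 and Erbb2 by 0.12 and -0.06 in wild type and knockout. Erbb3 and Erbb4 were not well above background on any array. Errfi1, a feedback inhibitor of these receptors, was opposite, at -0.44 and 0.51, and lost that call after quantile normalization.

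**Figure D4:**
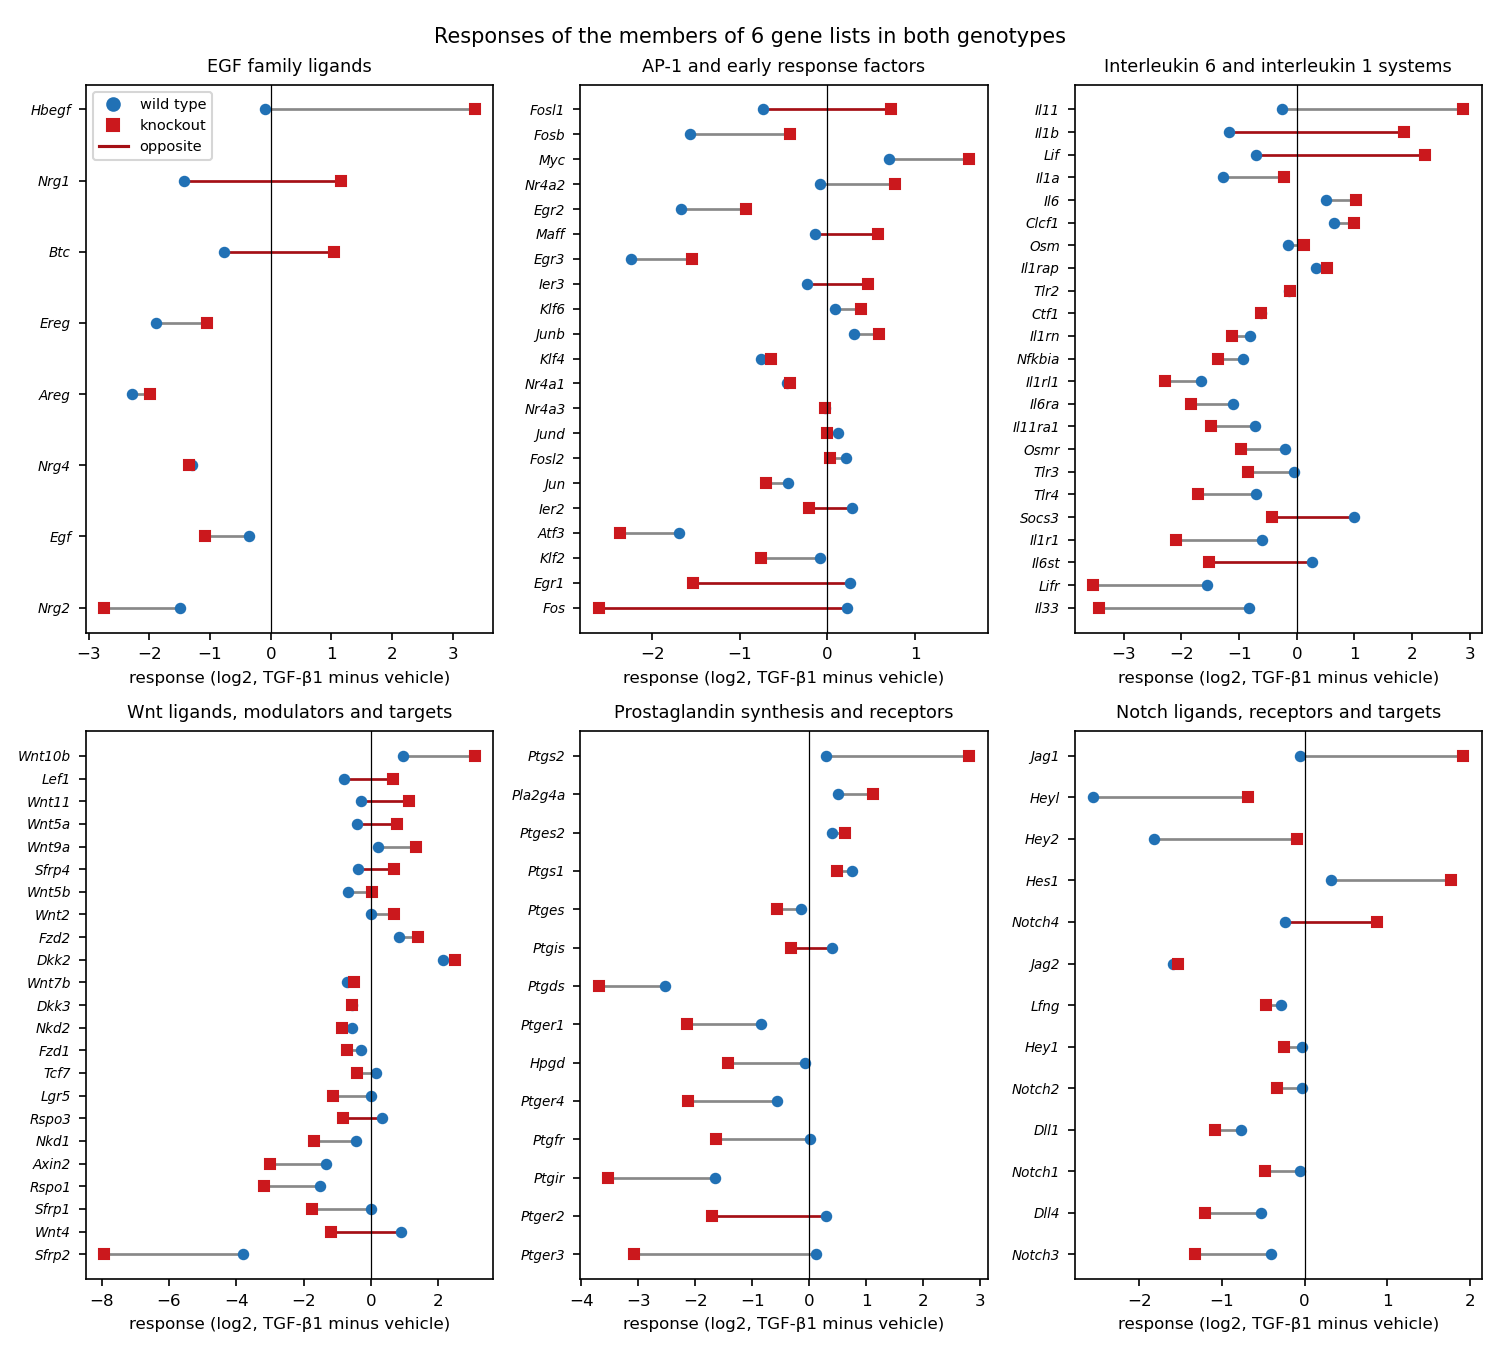
Response to TGF-β1 (x axis, log2) of each tested member of 6 gene lists in wild type (circles) and knockout (squares), ordered by interaction; red lines join the values of genes called opposite. In the panel of EGF family ligands Nrg1 and Btc both lie below 0 in wild type and above 0 in knockout, and the panel of prostaglandin genes shows 11 of 14 members with a negative called interaction.

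Transcription factors of the early response split in both directions. Of 21 members 10 had a positive and 7 a negative called interaction (median 0.11), and 6 were opposite. Fos, a subunit of AP-1, was at 11.65, 11.50, 11.78 and 11.88 on the wild type vehicle arrays and 11.87, 11.94, 11.95 and 11.95 with TGF-β1. Its knockout arrays gave 12.04, 12.30, 12.35 and 12.31 with vehicle and 9.62, 9.73, 9.55 and 9.64 with TGF-β1. Only the last group stood far from the others, and the wild type groups overlapped. Fos fell 6.13-fold in knockout. Its small rise in wild type, 0.22 ± 0.08 (SE), did not pass the test after quantile normalization (0.10, adjusted p = 0.218, limma's moderated test) or within slide 2 (0.12), while the interaction of -2.84 (adjusted p = 2.9e-11) was -2.86 after quantile normalization.

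Egr1, an early growth response factor, changed by 0.25 in wild type and -1.53 in knockout, and Ier2 by 0.28 and -0.21. Fosl1, Maff and Ier3 went the other way. Maff changed by -0.14 and 0.58 and lost the opposite call within each slide, and Ier3 changed by -0.23 and 0.46. Fosb, Egr2 and Egr3 fell in both genotypes and more in wild type, Fosb by 1.57 against 0.43, Egr2 by 1.67 against 0.93 and Egr3 by 2.25 against 1.54 on the log2 scale. Jun, a partner of the Fos proteins in AP-1, changed by -0.45 and -0.70, and Junb by 0.31 and 0.59.

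In the interleukin 6 and interleukin 1 systems 7 of 23 members had a positive and 13 a negative called interaction (median -0.44). Besides Lif, Il11 had an interaction of 3.14 ± 0.18 (SE), from -0.25 in wild type and 2.89 in knockout. Il1b changed by -1.17 and 1.86, and it was not well above background on all 16 arrays. Il6st, the signal-transducing receptor that LIF, interleukin 11 and interleukin 6 share, changed by 0.27 in wild type and -1.52 in knockout; its wild type rise was 0.01 after quantile normalization. Lifr, the LIF receptor, fell in both genotypes, by 1.55 in wild type and 3.53 in knockout.

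Socs3, an inhibitor of signalling by these receptors, was opposite. It stood at 13.01, 12.98, 12.77 and 12.84 on the wild type vehicle arrays and at 13.91, 13.92, 13.82 and 13.93 with TGF-β1. In knockout cells it was at 12.87, 13.00, 12.92 and 12.98 with vehicle and 12.59, 12.61, 12.39 and 12.50 with TGF-β1. The vehicle arrays overlapped between genotypes and the TGF-β1 groups lay above and below them. The responses were 1.00 ± 0.06 and -0.42 ± 0.06 (SE), and the interaction -1.42 ± 0.09 (adjusted p = 3.02e-09).

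The Wnt list was balanced, with 10 positive and 10 negative called interactions among 23 members and a median of 0.00, and it held 6 opposite genes. Wnt4 and Rspo3, which enhances Wnt signalling, rose in wild type and fell in knockout. The Rspo3 values were 0.34 ± 0.06 and -0.82 ± 0.06 (SE). Wnt5a and Wnt11, ligands known for signalling that does not need β-catenin, did the reverse. Wnt5a was at 10.83, 10.85, 10.85 and 10.88 on the wild type vehicle arrays and 10.51, 10.42, 10.35 and 10.53 with TGF-β1, and at 10.99, 11.10, 11.04 and 11.08 and then 11.83, 11.85, 11.83 and 11.84 in knockout. None of its groups overlapped, and the responses were -0.40 ± 0.04 and 0.79 ± 0.04. Wnt11 changed by -0.30 and 1.13. Lef1, a transcription factor of the pathway (-0.79 and 0.66), was not well above background on all arrays, and Sfrp4 (-0.37 and 0.69) kept the opposite call in 4 of 8 alternatives, with quantile normalization among those that lost it. Axin2, a feedback target of β-catenin, fell by 1.34 on the log2 scale in wild type and at least 3.27-fold in knockout.

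Prostaglandin genes had 3 positive and 11 negative called interactions among 14 members (median -1.23, against 0.07 for the median wild type response and -1.53 for that of knockout). Ptgs2, the inducible cyclooxygenase, rose by 2.81 ± 0.06 (SE) in knockout, from 10.27, 10.28, 10.11 and 10.09 to 13.03, 12.95, 13.02 and 12.99. In wild type it went from 10, 10.01, 10.12 and 10.19 to 10.52, 10.33, 10.30 and 10.34. The knockout TGF-β1 arrays were the highest of the 4 groups by far. The receptors went down: Ptger2, a receptor of prostaglandin E2, was opposite at 0.29 ± 0.05 and -1.71 ± 0.05 (SE), and Ptger3 and Ptgfr, neither well above background on all arrays, fell in knockout only, by 3.06 and 1.63 on the log2 scale. Hpgd, which breaks prostaglandins down, fell by 1.43 in knockout, with -0.07 in wild type. Ptgis, the prostacyclin synthase, changed by 0.40 and -0.31.

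Matrix genes were mixed. Of 19 collagens 9 had a positive and 7 a negative called interaction (median 0.06), and after quantile normalization 8 and 10 (median -0.16). Col5a3 and Col8a2 (-0.58 and 0.56) fell in wild type and rose in knockout. Col3a1, a major fibrillar collagen, changed by 0.30 and -0.53, and by -0.05 and -1.10 after quantile normalization. Col1a1 and Col1a2 had no called interaction, at 0.06 and -0.01. Of 30 matricellular and other matrix proteins 14 had a positive and 9 a negative called interaction, and 4 were opposite: Ccn3, Ccn5 (0.33 and -0.85, kept in 5 of 8 alternatives), Thbs2 (-0.11 and 1.1) and Eln. Eln, elastin, had responses of -1.68 ± 0.08 and 0.46 ± 0.08 (SE). Its wild type arrays gave 10.65, 10.60, 10.87 and 10.88 with vehicle and 9.10, 9.14, 9.03 and 9.03 with TGF-β1, and its knockout arrays 11.13, 10.88, 10.86 and 10.77 with vehicle and 11.38, 11.45, 11.21 and 11.43 with TGF-β1. Only the wild type TGF-β1 arrays were low. Itgb3, an integrin subunit, changed by -0.31 and 0.86 in wild type and knockout.

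Of 22 genes of TGF-β feedback and SMAD targets 18 had a positive and 1 a negative called interaction (median 0.75). Tgfb1, the ligand itself, was opposite, at -0.41 ± 0.08 and 0.70 ± 0.08 (SE). The receptor Tgfbr1 changed by -0.55 and 0.17, and its opposite call was kept in only 2 of 7 alternatives. Inhba, which encodes the activin A subunit and belongs to the same ligand family, responded in knockout only by the rule, from 12.28, 12.13, 12.08 and 12.15 to 15.13, 14.94, 15.20 and 14.96, with 0.34 ± 0.06 in wild type. In the contractile list 21 of 22 members had a positive called interaction (18 after quantile normalization), none was opposite, and 21 moved more in knockout. Glycolysis and hypoxia genes had 18 positive calls of 20, and interferon-stimulated genes 14 negative calls of 20, with 0 opposite in each list. With 3.95% of all tested genes opposite, a count of 0 in lists of this size does not set them apart.

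Cholesterol and fatty acid synthesis stood between these patterns. Of 23 members 18 had a positive and 0 a negative called interaction (14 and 0 after quantile normalization), while the median response was -0.23 in wild type and 0.04 in knockout. Cyp51, a sterol demethylase, was opposite at -0.20 ± 0.04 and 0.52 ± 0.04 (SE). Fasn, fatty acid synthase, was opposite at -0.16 and 0.55, a call lost after quantile normalization, where knockout gave 0.05.

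A response in knockout only was defined as at least 1 log2 unit in knockout with a 95% interval of the wild type response inside -0.5 to 0.5 and a called interaction. It was found for 415 genes (2.7%), 172 up (1.12%) and 243 down (1.58%). The wild type response was not exactly absent in these genes: it passed the test with the same sign in 206, with the opposite sign in 39, and not at all in 170. Besides Hbegf, Inhba and Ptgs2, the largest rises among genes well above background on all 16 arrays were those of Esm1, a secreted proteoglycan (3.07 in knockout and 0.05 in wild type), Cspg4, the NG2 proteoglycan (3.05 and -0.06), Fgf21, a metabolic hormone (2.85 and 0.13), and Sfn, the 14-3-3 protein sigma (2.56 and 0.04). Esm1 gave 9.15, 9.08, 9.14 and 9.13 on the knockout vehicle arrays and 12.11, 12.19, 12.36 and 12.12 with TGF-β1, against 9.09 to 9.38 on all wild type arrays. The knockout TGF-β1 arrays stood apart from the other 12.

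Falls in knockout only included Mmp8, a collagenase, at -3.08 in knockout and 0.02 in wild type. Its knockout arrays went from 13.19, 13.49, 13.40 and 13.41 to 10.16, 10.38, 10.27 and 10.37, while the wild type arrays stayed between 13.15 and 13.38. Other such genes were Nxpe5 (-3.38 and 0.08), Myo5b, a motor of vesicle transport (-2.97 and 0.17), Xdh, xanthine dehydrogenase (-2.71 and -0.14), and Ptx3, a long pentraxin (-2.64 and -0.05). Frmd5 (-3.45 and -0.20), Podn (-3.09 and -0.36) and Prss35 (-2.91 and -0.26) met the rule but kept it in 8, 7 and 13 of 27 alternatives, since their wild type intervals lie near the bound. Pbp2 (2.53 and 0.31) kept it in 17. Of dimmer genes, Serpina3i fell at least 31.6-fold in knockout by its brightest probe, while its other probe changed by -3.81 in knockout and -0.51 in wild type, and B3galt5 rose at least 5.04-fold there.

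A response in wild type only, by the same rule with the genotypes exchanged, was rarer. It was found for 29 genes (0.188%), 14 up (0.0909%) and 15 down (0.0974%), Islr included. The knockout response was small but not always absent: it passed the test with the same sign in 9, with the opposite sign in 8, and not at all in 12. Of the 29, 26 were well above background on all 16 arrays, beside 13954 of all 15394 tested genes. The genotype difference with vehicle was under 0.5 in 22 of the 29, a smaller share than the 96.8% of all tested genes. Ccl12, a chemokine that attracts monocytes, rose most among the named ones. It was at 9.07, 8.91, 9.35 and 9.37 on the wild type vehicle arrays and 11.22, 11.31, 11.38 and 11.32 with TGF-β1. The knockout arrays gave 8.96, 9.01, 9.09 and 9.09 with vehicle and 9.03, 9.25, 8.95 and 9.26 with TGF-β1. Only the wild type TGF-β1 arrays were high. Ccl12 rose 4.39-fold in wild type, the knockout response was 0.08 ± 0.10 (SE), and the interaction -2.05 ± 0.14 (adjusted p = 9.68e-09). Of 20 other chemokines 6 had a positive and 11 a negative called interaction, and 0 responded in wild type only.

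Igfbp3, an insulin-like growth factor binding protein, rose 2.77-fold in wild type, from 13.80, 13.78, 13.81 and 13.82 to 15.32, 15.27, 15.23 and 15.29. In knockout it went from 13.82, 13.94, 13.83 and 13.88 to 14.12, 14.25, 13.91 and 14.25. The knockout rise of 0.27 ± 0.06 (SE) was called but small. Cemip, which breaks down hyaluronan, changed by 1.51 ± 0.08 in wild type and 0.15 ± 0.08 in knockout. Adora2b, the adenosine receptor related to Adora2a, changed by 1.44 ± 0.06 and -0.14 ± 0.06. With TGF-β1 its arrays were at 9.06 to 9.25 in wild type and 7.45 to 7.71 in knockout, and with vehicle at 7.66 to 7.81 and 7.65 to 7.71. Dbp, a circadian transcription factor, was both a wild type response (1.73) and opposite (-0.30 in knockout). Adgrd1, an adhesion receptor (1.34 and 0.14), Ambp (1.29 and 0.22) and Avil, an actin-binding protein (1.14 and 0.19), were the other named rises. Dbp and Avil kept the call of a response in wild type only in 23 of 27 alternatives and Ambp in 22.

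Among genes well above background on all 16 arrays, the largest falls in wild type only were those of Myl7 (-1.52 and -0.31), Scimp, a membrane adaptor of leukocytes (-1.51 and 0.30), and Krt19, a keratin (-1.39 and 0.12). Krt19 stood at 10.42, 10.58, 10.44 and 10.38 on the wild type vehicle arrays and 9.07, 8.92, 9.10 and 9.18 with TGF-β1, and between 9.97 and 10.35 on the 8 knockout arrays. The wild type TGF-β1 arrays were the lowest group, and knockout vehicle arrays were 0.39 below those of wild type. Krt42, another keratin, changed by -1.26 and 0.31, and it kept the call of a response in wild type only in 20 of 27 alternatives. Tnfaip3, an inhibitor of NF-κB signalling, changed by -1.16 ± 0.06 and -0.11 ± 0.06 (SE). Slc7a11, the cystine transporter (-1.28 and -0.27), Ank, a pyrophosphate transporter (-1.19 and -0.36), and H2-Eb1, an MHC class II chain (-1.21 and -0.25), also met the rule. Ank kept it in 20 of 27 alternatives, and both Ank and Krt42 lost it after quantile normalization. The other probe of Slc7a11, well above background on all 16 arrays, changed by -1.91 in wild type and -0.82 in knockout. Slc7a11 lost the call when its probes were averaged. Scimp and H2-Eb1 were lower in knockout than in wild type already with vehicle, by 0.97 and 0.78 on the log2 scale.

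**Figure D5:**
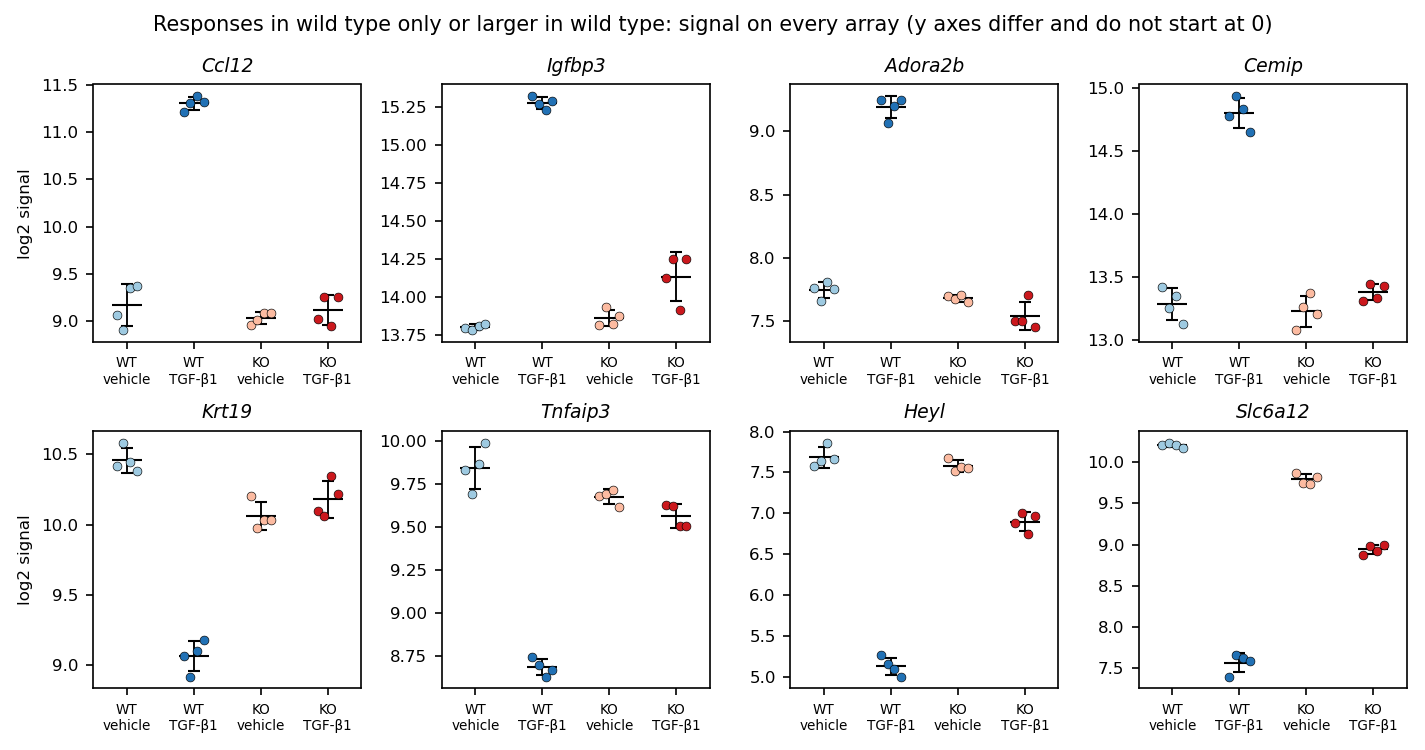
Log2 signal on every array (y axis) for genes that responded in wild type only (Ccl12, Igfbp3, Adora2b, Cemip, Krt19, Tnfaip3) or more in wild type (Heyl, Slc6a12), by genotype and treatment; points are arrays, horizontal lines group means and bars 1 SD (n = 4). The wild type TGF-β1 arrays stand apart from the other 12 in each panel, with Ccl12 at 11.22 to 11.38 against 8.91 to 9.37.

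A larger response in wild type, with both responses called in 1 direction, was found for 379 genes (2.46%), 178 up (1.16%) and 201 down (1.31%), against 5356 (34.8%) with a larger response in knockout. The excess reached 0.5 log2 units in 122 (0.793%), 39 up (0.253%) and 83 down (0.539%), and in 18 of these the TGF-β1 arrays of both genotypes were not well above background, so that the size of the fall is not measured. Heyl, a target of Notch signalling, had the largest excess of the named falls. Its wild type arrays gave 7.57, 7.64, 7.86 and 7.66 with vehicle and 5.26, 5.15, 5.09 and 5.00 with TGF-β1, and its knockout arrays 7.68, 7.52, 7.56 and 7.55 with vehicle and 6.88, 7.003, 6.75 and 6.96 with TGF-β1. The vehicle arrays overlapped and the wild type TGF-β1 arrays were lowest. Heyl fell 5.89-fold in wild type and 1.60-fold in knockout (interaction 1.88 ± 0.10, SE, adjusted p = 1.06e-09).

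Of 13 genes of the Notch list, Heyl included, 5 had a positive and 2 a negative called interaction (median -0.18). Jag1, a Notch ligand, rose by 1.92 in knockout only, Hes1, a target, rose by 0.32 in wild type and 1.78 in knockout, and the receptor Notch4 was opposite (-0.23 and 0.88). Notch3 went down more in knockout, -0.40 in wild type and -1.33 in knockout. Hey2 (-1.82 and -0.09) was not well above background with TGF-β1 in wild type.

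Slc6a12, a betaine and GABA transporter, fell 6.23-fold in wild type and 1.80-fold in knockout. Vipr1, a receptor of vasoactive intestinal peptide, changed by -2.14 and -0.55, and its dimmer probe gave -0.50 and 0.65. Pi16 (-1.97 and -0.70), a marker of adventitial fibroblasts, Dact2, a regulator of Wnt and TGF-β signalling (-2.68 and -1.58), and Clec1b, a C-type lectin receptor (-1.98 and -0.85), also fell more in wild type. Clec1b was 1.59 lower in knockout with vehicle, on the log2 scale. Of the dimmer genes, Scube1 had TGF-β1 arrays of both genotypes below background, and its dimmer probe had an interaction of -0.39 against 1.39.

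Rises that were larger in wild type were smaller in excess. Arg1, arginase 1, rose 47.5-fold in wild type and 26.1-fold in knockout. It was at 4.91, 5.28, 5.46 and 5.24 on the wild type vehicle arrays and 10.86, 10.73, 10.77 and 10.83 with TGF-β1, and at 6.04, 6.55, 6.32 and 6.36 and then 11.10, 10.99, 11.04 and 10.96 in knockout. Knockout arrays were the higher ones in both conditions, by 1.09 with vehicle and 0.23 with TGF-β1 on the log2 scale. Slc14a2, a urea transporter (1.66 and 0.57), Il4ra, the interleukin 4 receptor chain (1.56 and 0.84), Syt13 (2.51 and 1.71), Phox2a, a transcription factor (1.34 and 0.51), Hspb6, a small heat shock protein (1.11 and 0.45), and Chchd10, a mitochondrial protein (1.14 and 0.38), gave the same order. Ppp1r3g (1.71 and 0.93) kept the call in 11 of 27 alternatives. Wfdc21, a secreted acute phase gene not well above background on all arrays, rose by 6.22 and 4.86, a negative interaction. Of the 16 tested genes of its list 11 had a negative and 0 a positive called interaction (median -0.97). The median response of that list was a fall in both genotypes, -1.10 in wild type and -3.13 in knockout.

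Summed levels of markers of other cell types differed with TGF-β1, some lower and some higher. The summed linear signal of 15 macrophage and leukocyte markers was 162060 to 186904 with vehicle and 92413 to 98298 with TGF-β1 in wild type, and 137892 to 142556 and 66357 to 72712 in knockout. Of these markers 1 had a positive and 8 a negative called interaction, and none was at background on all arrays. The 8 mesothelial markers summed to 42119 to 45447 and 30602 to 31664 in wild type and 38187 to 38802 and 13813 to 15792 in knockout, with 1 positive and 6 negative called interactions (median -1.61). Krt19 is the positive one, and Wt1 (0.41 and -0.64) and Lrrn4 (0.15 and -1.81) were opposite, Lrrn4 in only 4 of 8 alternatives. The endothelial sum was 13175 to 13529 and 7912 to 8418 in wild type and 12285 to 12763 and 5990 to 6644 in knockout, with 1 positive and 10 negative called interactions among 14 markers. The 12 epithelial markers summed to 9037 to 9832 with vehicle and 11798 to 12667 with TGF-β1 in wild type, and to 8103 to 8520 and 12275 to 13605 in knockout. A sum of linear signals is led by the bright markers, and the median response of these 12 was -0.51 in wild type and 0.13 in knockout. Sftpb and Scgb1a1 fell and were not well above background on any TGF-β1 array. Scgb1a1 fell at least 3.14-fold in wild type and at least 1.93-fold in knockout. Krt8 rose 1.65-fold and 1.71-fold, and Krt18 1.72-fold and 1.92-fold. Only 4 of the 12 had a called interaction, 2 in each direction. The 12 pericyte and smooth muscle markers summed to 31819 to 33323 and 35691 to 38980 in wild type and 34314 to 35645 and 40928 to 43097 in knockout, with 5 positive and 4 negative called interactions. The part of these cells in the responses of Hp, Ccl12, Scimp, H2-Eb1, Clec1b, Il1b, Krt19 and the other genes was not tested.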

How the data were processed

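RNA of 16 samples was hybridised to 1-colour Agilent arrays. Per the file headers, the authors' Feature Extraction 11.0.1.1, also named in the submitters' processing notes, gave a background-subtracted and spatially detrended spot intensity on a linear scale. The authors also deposited log2 values, which served as an alternative and whose normalization is not given in the sources used here.

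The log2 of 59305 spot intensities was taken and averaged per probe, 27 of 56605 probes were left out for outlier marks, and each array was shifted to a common 75th percentile. A probe was kept if some group had it well above background on each of its 4 arrays (33888 probes). Accessions of 32994 of the 56605 probes, and of 22709 of those kept, matched a gene in RefSeq tables of GRCm38.p6, while the array design was drawn on mm9. The brightest kept probe stood for each of 15394 genes. Limma 3.58.1 in R 4.3.3 (package data.table, version 1.17.8) fitted 1 coefficient per group with empirical Bayes moderation, 2-sided tests and Benjamini-Hochberg adjustment over all genes within each of 5 comparisons; the scripts were tested on simulated data. Values after ± are standard errors. The number of arrays limits the precision.

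Named genes are Islr, Hp, Angptl7, Nrg1 and Hbegf. Then come genes well above background on all 16 arrays whose TGF-β1 and vehicle arrays did not overlap in each genotype said to respond. Of those, the 10 per opposite pattern with the largest smaller response were taken, and the 8 per direction with the largest response in 1 genotype only or the largest excess in wild type. Up to 3 dimmer genes per class, and list members, were added. Accession-like symbols were passed over, and some results are not reported here. Members and lists were chosen with earlier results of these data known. Alternatives covered quantile normalization, normexp (offset 50, on the median spot signal, the mean not being used here), the authors' table, dim probes, probe averaging, slide and replicate blocks, single slides, centring and leaving out each array.

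Slides 1 and 2 each held 2 arrays of every group.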

Additional observations from a re-analysis of the deposited data

Results flagged for a closer look

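The response to TGF-β1 differed between genotypes by the test of the difference itself for 8967 of 15394 genes. These hold 608 opposite responses, 415 responses in knockout only, 29 in wild type only, 379 larger in wild type and 5356 larger in knockout, and a gene can be in more than 1 of these classes. The interaction was -6.084 for Hp, -5.19 for Angptl7, 2.586 for Nrg1 and 3.449 for Hbegf.

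Single arrays stood apart from the other 3 of their group by Dixon's test in 10 of 316 groups of named genes, and chance marks about 1 in 20. Among genes with opposite responses these were Adora2a on wild type vehicle array 4 (6.737, nearest other 7.232), Col5a3 on knockout vehicle array 4 (10.25) and Rgs4 on knockout TGF-β1 array 4 (6.225). Among responses in knockout only they were Fgf21 on wild type vehicle array 4 (6.718), Nxpe5 on wild type TGF-β1 array 1 (9.516), Podn on knockout vehicle array 3 (13.33), Mmp8 on wild type TGF-β1 array 3 (13.22) and B3galt5 on wild type TGF-β1 array 4 (1.986). Slc7a11, a wild type response, stood apart on wild type TGF-β1 array 3 (7.323), and Dact2, larger in wild type, on knockout vehicle array 1 (8.48).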

How the results depend on the processing

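The 61 genes with opposite responses of at least 0.5 became 21 after normexp correction and 40 among genes well above background on all 16 arrays, and the 122 with a response larger in wild type by at least 0.5 became 73 after normexp correction. In the authors' value table, where 5257 genes could be tested, there were 3825 genes called for the interaction, 169 genes with opposite responses, 201 genes with a larger response in wild type and 2926 genes with a larger response in knockout. Within slide 1, with 2 arrays per group, these were 5615, 291, 155 and 3120. Leaving out 1 array at a time gave 8613 to 9050 called interactions, 541 to 634 opposite responses, 381 to 428 responses in knockout only, 23 to 31 in wild type only, 328 to 388 larger in wild type and 5026 to 5384 larger in knockout. Of the named interactions under all alternatives, 2114 kept their direction and call and 31 kept the direction alone, for Ppp1r3g, H2-Eb2 and Mucl3. The interaction of H2-Eb2 turned to -0.0753 within slide 1, and the cause was not tested. The median knockout response of all genes was 0.10, against -0.01 after quantile normalization and -0.36 in the authors' table, so that small opposite responses depend on the scaling. With the replicate number as a block there were 9308 called interactions, 648 opposite responses, 431 genes with a response in knockout only, 31 genes with a response in wild type only, 423 larger in wild type and 5560 larger in knockout. Deviations of arrays that share a number correlated weakly across groups, from -0.03 to 0.22, with a positive mean for every number. Of 16 arrays, 12 correlated best with their own number, so the numbers may carry a weak shared structure. The main fit used no block for it. Signals near background limit what can be said of the dimmer genes.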

Other observations

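Probes without a gene name were tested for the interaction and for opposite responses. Of 11179 such probes well above background in at least 1 group, limma's moderated test called the interaction for 3857 (34.5%, against 58.2% of named genes). Opposite responses were found for 140 of them, against 608 of 15394 named genes, and 24 of the 140 had at least 0.5 log2 units in each genotype. They are not among the genes described above.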
